A study of Mus musculus with 6 samples.

Results

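Arginine vasopressin (AVP) and oxytocin act on cells through a small family of receptors, and the transcripts of those receptors and of the relay behind them are described here in GT1-7 cells. The set held 10 genes: the receptors Oxtr, Avpr1a and Avpr2, the G protein alpha subunits Gnaq and Gna11, the phospholipases Plcb1, Plcb3 and Plcb4, and the calcium release channels Itpr1 and Itpr3. They were chosen by gene symbol, with no threshold on their values but with earlier results of these data known, and all 10 were among the 24391 gene rows of the count tables. Of the 10, 8 passed the filter on low counts that left 14163 rows for testing, while Avpr1a and Avpr2 did not.

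As background, the oxytocin receptor and the V1a and V1b vasopressin receptors couple to G proteins of the Gq class. The active Gq alpha subunit switches on phospholipase C-beta, which splits the membrane lipid phosphatidylinositol bisphosphate (PIP2) into diacylglycerol (DAG) and inositol trisphosphate (IP3). IP3 then opens IP3 receptors in the endoplasmic reticulum and releases stored calcium, and DAG activates protein kinase C. The V2 receptor differs from these in that it couples to Gs and raises cyclic AMP. In the hypothalamus both peptides are made by large neurosecretory neurons and also act on neighbouring neurons.

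RNA sequencing was done on 3 cultures given AVP at 200 pg/mL for 6 h and on 3 control cultures, all wild type by label and all kept without serum for 12 h beforehand. The design text names vehicle as the control and another label calls the same cultures untreated, which could not be settled from the labels. GT1-7 is a single immortalised mouse hypothalamic line, labelled as resembling neurons that make gonadotropin-releasing hormone (GnRH), so the 6 cultures share 1 genetic origin. The labels call the 3 cultures of a group independent biological replicates and give all 6 the same batch.

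The AVP libraries held 36257545, 37418318 and 35597040 counts and the control libraries 36826004, 35986533 and 34908867. At that depth 3 counts in a library, taken here as the floor of detection, were worth 0.0802 to 0.0859 CPM, that is, counts divided by library size and put on a common scale. The AVP libraries had 16674 to 16739 detected genes against 16166 to 16403 in the control libraries, and the nuclear RNA Malat1 stood at 1499 to 1724 CPM with AVP and at 498.8 to 1106 CPM in control. The part of these shifts in the results below was not tested. Control replicate 1 also held 0.995% of its counts on the ribosomal precursor Rn45s, against 0.139 to 0.245% in the other libraries. Gnrh1, the defining transcript of the labelled cell type, was measured at only 0.303 to 0.59 CPM with AVP and 0.299 to 0.745 CPM in control. Neuronal markers summed to 1250 to 1320 CPM with AVP and 1330 to 1420 CPM in control, and the markers went both ways. Syp fell (695 to 755 CPM with AVP, 891 to 1010 CPM in control), Tubb3 (241 to 269 CPM with AVP, 167 to 186 CPM in control) and Map2 rose, and Stmn2, 1 of the 6, had a single count over all libraries. The defining markers Mog (oligodendrocyte), P2ry12 (microglia) and Cldn5 (endothelium) had 0 counts in every library. In such bulk RNA, fewer cells expressing a gene and less of its RNA per cell cannot be told apart.

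The question put to the set was whether its transcripts differed between AVP-treated and control cells. The oxytocin receptor was the 1 member that fell with AVP, while Gnaq, Plcb3, Plcb4, Itpr1 and Itpr3 rose and Gna11 and Plcb1 did not pass the threshold. Each gene was tested with edgeR's quasi-likelihood test, with Benjamini-Hochberg adjustment over all 14163 tested genes and a threshold of 0.05. Thus 6 of the 8 tested members (75%) were called, beside 57.5% of all tested genes. The 5 that rose stand beside a background of 28.7% of all tested genes higher with AVP, and the 1 that fell beside 28.8% lower. For all 8, the ranges of the AVP and the control libraries were separate, which also held for 63.4% of all tested genes. The median log2 fold change was 0.37 over the 8 tested members and 0.01 over all tested genes, and the median absolute log2 fold changes were 0.53 and 0.32. With most genes of these libraries called, the counts alone say little about the set, and the values of each member follow.

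**Figure D1:**
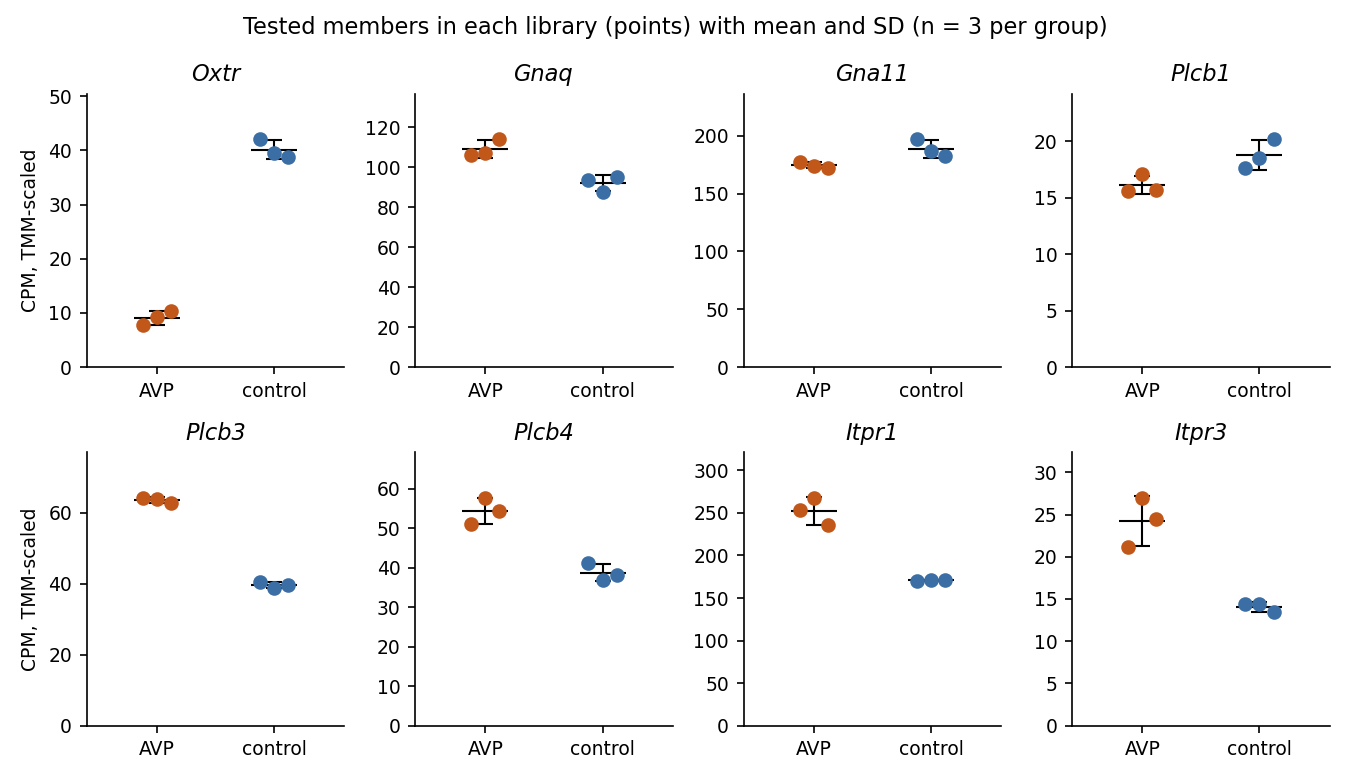
Level of each tested member in the 6 libraries, in CPM scaled by TMM factors, on axes that start at 0 (points: libraries, AVP left and control right; horizontal line and bar: mean and SD, n = 3 per group). Oxtr lies at 7.83 to 10.3 CPM with AVP and at 38.8 to 42.1 CPM in control, the widest gap of the 8 in proportion to level, whereas Gna11 and Plcb1 show narrow gaps.

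Oxtr encodes the oxytocin receptor, which AVP can also bind (GRCm38 chromosome 6, 112473683 to 112489943, minus strand). The AVP libraries held 288, 347 and 369 Oxtr counts and the control libraries 1522, 1404 and 1345. Scaled to library size, that was 7.83, 9.17 and 10.3 CPM with AVP, against 42.1, 39.5 and 38.8 CPM in control. All 3 AVP cultures were thus far below all 3 control cultures, and the distance between the groups was many times the spread within either. The means were 9.09 ± 1.21 CPM with AVP and 40.1 ± 1.73 CPM in control (SD, n = 3 each), which is 4.42-fold lower with AVP (log2 fold change -2.14, SE 0.10, adjusted p = 1.23e-10). This absolute change was larger than that of 98.3% of the tested genes. Within its group, Oxtr varied more with AVP (coefficient of variation 13.3%) than in control (4.32%). That difference in spread rests on 3 libraries a group and was not tested.

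The RefSeq promoter window of Oxtr is shown because Oxtr is the member with the largest change. It covers 250 bases before to 50 after the annotated start, GRCm38.p6 chr6:112489776-112490075 on the minus strand, and spans the start of the longer GENCODE gene model. Capitals mark a GC box (GGGCGG, here on the opposite strand as CCGCCC) followed at base 208 of the window by an E-box, CACGTG, which overlaps the GC box by no base.
Oxtr: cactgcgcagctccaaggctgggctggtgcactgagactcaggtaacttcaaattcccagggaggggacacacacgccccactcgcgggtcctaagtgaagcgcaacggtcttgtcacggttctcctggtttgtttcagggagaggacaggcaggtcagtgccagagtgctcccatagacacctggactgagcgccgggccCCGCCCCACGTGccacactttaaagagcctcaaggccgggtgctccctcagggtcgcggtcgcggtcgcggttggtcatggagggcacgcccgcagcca
An E-box of these letters occurs in 7.15% of 32851 RefSeq windows of the same length, and a GC box in 35.7%, counting both strands. Such matches describe the letters and do not show a bound site.

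By a nearest-profile rule over the 6 libraries, 5 named genes had levels most like those of Oxtr. Likeness was the Euclidean distance between log2(CPM + 0.5) profiles, each centred on its own mean, taken over the 10611 genes whose mean reached 5 CPM. Pck2 was nearest, at a distance of 0.12 on the log2 scale, with means of 69.3 ± 5.82 CPM with AVP and 308.0 ± 9.13 CPM in control. Fam129a, Igfbp4, Gpt2 and Cyb5r1 followed at distances of 0.12, 0.13, 0.15 and 0.16. Only 12 genes lay within a distance of 0.3 of Oxtr. The Pearson correlation of Pck2 with Oxtr over the 6 libraries was 0.9992, taken over both groups together and given as a description only. The same rule set on Plcb4, a member of moderate change, had 1035 genes within 0.3, with Rc3h1 (0.04), Podxl (0.05) and Map1a (0.06) nearest. With a fixed radius these counts follow the size of each change, since few genes changed as much as Oxtr.

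**Figure D2:**
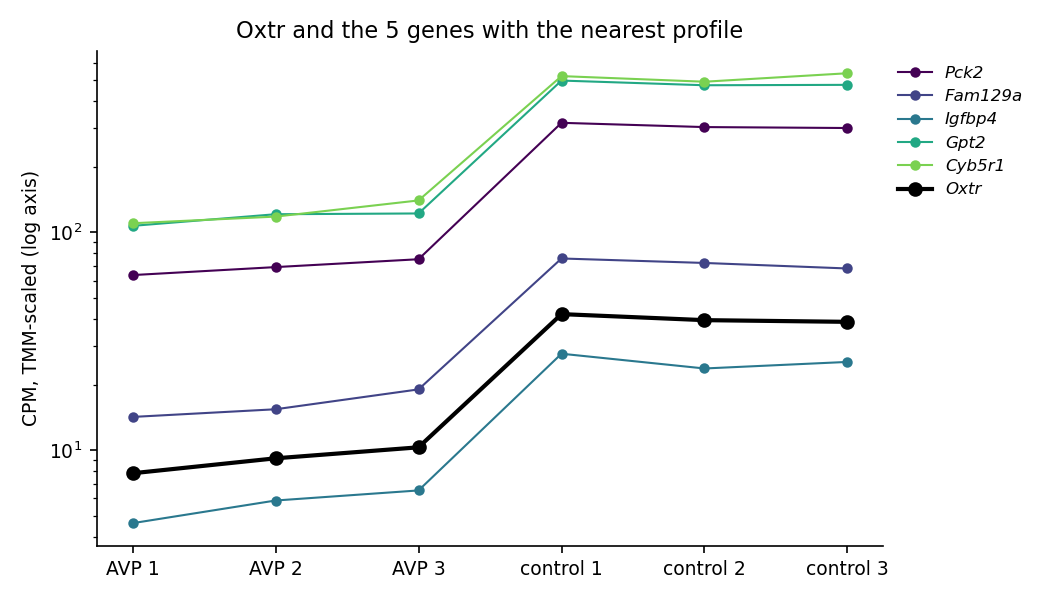
Oxtr (heavy black line) and the 5 genes with the nearest profile across the 3 AVP and the 3 control libraries, in TMM-scaled CPM on a log axis (lines only join the points of a gene). The 6 profiles run nearly parallel, with a step between the groups and smaller changes within them. All 6 climb from AVP replicate 1 to AVP replicate 3, Oxtr from 7.83 to 10.3 CPM. Oxtr lies lower than all but Igfbp4.

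The classical vasopressin receptors were at or near the floor of detection in both groups. Avpr1a encodes the V1a receptor, which acts through Gq (chromosome 10, 122448499 to 122453452, plus strand). It had 1, 0 and 0 counts in the AVP libraries and 0, 2 and 0 in the control libraries. Summed over each group that is 0.00915 CPM with AVP (95% exact Poisson interval 0.000232 to 0.051) and 0.0186 CPM in control (0.00225 to 0.0671), intervals that cover counting error only. No library reached the floor, so Avpr1a was not detectable at this depth in either group and no fold is given.

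Avpr2, the V2 receptor gene best known for water reabsorption in the kidney, lies on the X chromosome (73892102 to 73895502, plus strand). Its counts were 5, 2 and 0 in the AVP libraries and 0, 0 and 2 in the control libraries. The summed level was 0.0641 CPM with AVP (0.0258 to 0.132) and 0.0186 CPM in control (0.00225 to 0.0671), and these intervals overlap, so no fold is given. Only AVP replicate 1 lay above its floor, and the other 5 libraries did not. An exon of Avpr2 overlaps one of Arhgap4 on the opposite strand, and with the authors' use of strand unknown even these few reads may belong to either gene. Avpr1b, the V1b receptor gene known from pituitary corticotrophs and no member of the set, had no count in any of the 6 libraries. The upper 95% Poisson bound on its summed level was 0.0338 CPM with AVP and 0.0342 CPM in control. Among the genes of the receptor family, Oxtr was thus the 1 transcript measured well above the floor.

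The genes of the peptides themselves were also near the floor. Avp had 0 counts over the AVP libraries and 4 over the control libraries, and Oxt had 18 with AVP and 19 in control. Lnpep, which encodes the membrane aminopeptidase that degrades oxytocin and vasopressin, rose to 36.0 ± 5.52 CPM with AVP, against 17.6 ± 0.886 CPM in control (log2 fold change 1.03, adjusted p = 6.5e-07).

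At the G protein step, Gnaq rose slightly and Gna11, its closest relative, did not pass the threshold. Gnaq encodes G alpha q, which binds and activates phospholipase C-beta (chromosome 19, 16132831 to 16387463, plus strand). Its levels were 106, 107 and 114 CPM in the AVP libraries and 93.4, 87.6 and 95.3 CPM in the control libraries. Every AVP value was above every control value, though by a small margin. The means of 109 ± 4.45 CPM with AVP and 92.1 ± 4.04 CPM in control gave a 1.18-fold rise (log2 fold change 0.24, SE 0.06, adjusted p = 0.00192). Against a fold change of 1.2 in place of any change, Gnaq did not pass (adjusted p = 0.615).

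Gna11 encodes G alpha 11, which activates the same phospholipases (chromosome 10, 81528724 to 81545190, minus strand). It stood at 177, 174 and 172 CPM with AVP and at 197, 187 and 182 CPM in control. The AVP values all lay below the control values, with means of 174 ± 2.66 CPM with AVP and 189 ± 7.92 CPM in control. The log2 fold change of -0.11 (SE 0.05) had an adjusted p of 0.0711 and is not a call. Without control replicate 3 it would have been one (log2 fold change -0.15, adjusted p = 0.031), so that library decides the side of the threshold.

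The count ratio of the 2 subunits within a library, which does not depend on scaling, was also compared. Gnaq over Gna11 was 0.596, 0.616 and 0.664 in the AVP libraries and 0.473, 0.469 and 0.524 in the control libraries. The ratio was higher in every AVP library, with geometric means of 0.625 with AVP and 0.488 in control (log2 difference 0.36, exact two-sided permutation p = 0.1, adjusted p = 0.125 over 5 ratios). For 3 libraries against 3, 0.1 is the smallest p that this test can give, so no ratio could pass 0.05.

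Exon length is taken here as the union of all annotated exons of a gene, which can exceed the length of the transcripts present. Levels per kb of exon, their order and the class shares therefore depend on the annotation. By this measure, Gna11 was the most abundant member of the set. It had 42.6 ± 0.649 CPM per kb of exon with AVP and 46 ± 1.93 CPM per kb in control. Gnaq was next, at 17.6 ± 0.719 CPM per kb with AVP and 14.9 ± 0.653 CPM per kb in control. The other Gq class genes were scarce. Gna14 fell (0.686 ± 0.0953 CPM with AVP and 1.7 ± 0.434 CPM in control, log2 fold change -1.30, adjusted p = 0.00183). Gna15, known mainly from blood cells, rose to 0.778 ± 0.19 CPM with AVP, against 0.141 ± 0.0268 CPM in control (log2 fold change 2.44, adjusted p = 0.000421), on 21 to 34 counts per AVP library and 4 to 6 per control library. Summed per kb over the 4 genes, the class stood at 60.8 ± 0.245 with AVP and 61.5 ± 1.97 in control, and the library values overlapped. The composition moved a little inside that level. Gnaq made up 29.0 ± 1.1% of the class with AVP and 24.2 ± 1.18% in control, and Gna11 70.1 ± 1.21% with AVP and 74.9 ± 1.04% in control.

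**Figure D3:**
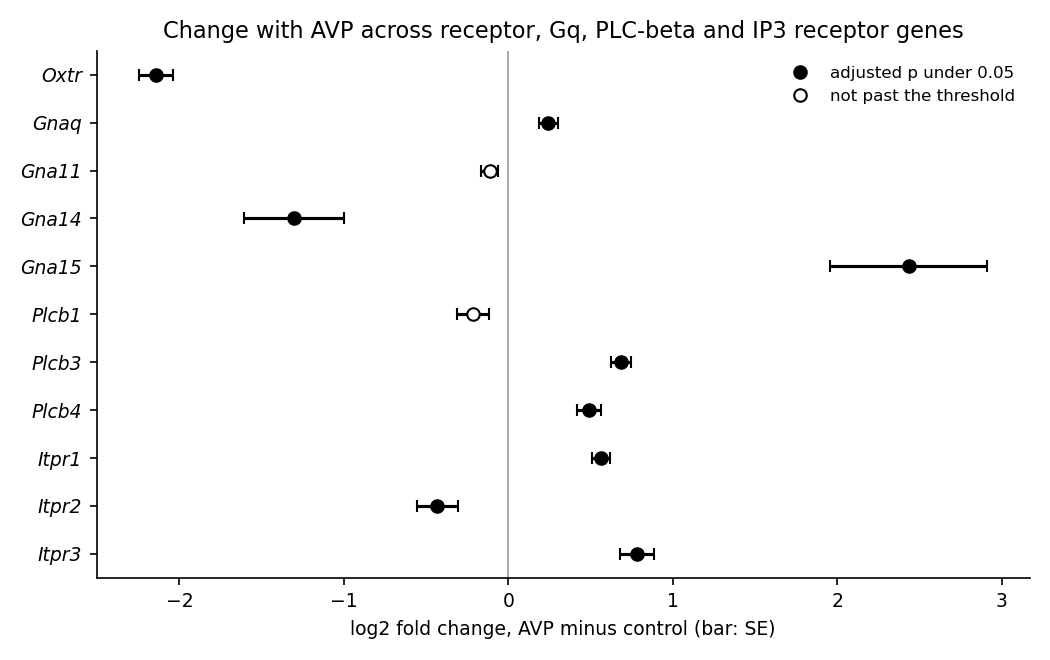
Log2 fold change, AVP minus control, of the 8 tested members and of Gna14, Gna15 and Itpr2, the other tested genes of the same families (bar: SE; filled: adjusted p under 0.05; open: not past the threshold). Oxtr at -2.14 lies far left of all other members, and Plcb3, Plcb4, Itpr1 and Itpr3 lie between 0.49 and 0.78.

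Of the phospholipase C-beta genes, Plcb3 and Plcb4 rose and Plcb1 did not. Plcb3 encodes an isoform that responds to both G alpha q and G beta-gamma (chromosome 19, 6952325 to 6976470, minus strand). It was measured at 64.3, 64.0 and 62.7 CPM in the AVP libraries and at 40.4, 38.8 and 39.6 CPM in the control libraries. The libraries of each group were nearly equal and the groups lay well apart. At 63.6 ± 0.867 CPM in AVP libraries and 39.6 ± 0.83 CPM in control libraries, Plcb3 was 1.61-fold higher (log2 fold change 0.68, SE 0.06, adjusted p = 2.16e-07). It had the smallest adjusted p among the members that rose. Its exons overlap those of Ppp1r14b on the opposite strand, which without strand knowledge leaves the origin of some reads uncertain.

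Plcb4 encodes an isoform known from cerebellum and retina that responds to G alpha q (chromosome 2, 135659011 to 136014593, plus strand). Levels were 51.2, 57.8 and 54.3 CPM with AVP, against 41.2, 36.9 and 38.2 CPM in control. The groups did not overlap, and the lowest AVP library was AVP replicate 1. Plcb4 averaged 54.4 ± 3.28 CPM with AVP and 38.8 ± 2.22 CPM in control, a 1.40-fold rise (log2 fold change 0.49, SE 0.07, adjusted p = 3.52e-05).

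Plcb1, the isoform prominent in the forebrain, lies near Plcb4 on chromosome 2 (134786067 to 135475258, plus strand). It was measured at 15.6, 17.1 and 15.7 CPM with AVP and at 17.6, 18.5 and 20.2 CPM in control. Each AVP value lay below each control value, by margins close to the spread within the groups. The means were 16.1 ± 0.836 CPM with AVP and 18.8 ± 1.32 CPM in control, and the log2 fold change of -0.22 (SE 0.10) had an adjusted p of 0.0673. Leaving out control replicate 1 gave -0.26 with an adjusted p of 0.0448, so the side of the threshold again depended on 1 library. An exon of Plcb1 overlaps the antisense gene 9630028H03Rik.

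The counts of the phospholipases were also set against each other within each library. Plcb3 over Plcb1 was 4.11, 3.74 and 4.0 in the AVP libraries and 2.29, 2.10 and 1.96 in the control libraries. The geometric means of 3.95 with AVP and 2.11 in control gave the largest difference of the 5 ratios compared (log2 difference 0.90, exact two-sided permutation p = 0.1, adjusted p = 0.125). Plcb4 over Plcb1 was 3.37 with AVP and 2.07 in control (log2 difference 0.71, exact p = 0.1, adjusted p = 0.125). Plcb3 over Plcb4 moved less, with 1.17 in AVP and 1.02 in control libraries (log2 difference 0.20, exact p = 0.1, adjusted p = 0.125). In all 3 ratios the AVP libraries lay above every control library.

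Per kb of exon, Plcb3 was the most abundant phospholipase C-beta in both groups, with 9.14 ± 0.125 CPM per kb with AVP and 5.69 ± 0.119 CPM per kb in control. Plcb4 followed with 6.07 ± 0.366 with AVP and 4.32 ± 0.248 in control, and Plcb1 with 1.45 ± 0.0752 with AVP and 1.69 ± 0.119 in control. Plcb2, known mainly from blood cells, had 8, 2 and 0 counts with AVP and none in control, and was not tested. The sum of Plcb1, Plcb3 and Plcb4 was 16.7 ± 0.449 CPM per kb with AVP and 11.7 ± 0.33 CPM per kb in control. Within that sum the share of Plcb1 was 8.71 ± 0.216% with AVP and 14.4 ± 1.12% in control. Plcb3 held 54.9 ± 1.47% with AVP and 48.6 ± 0.428% in control, while the share of Plcb4 was 36.4 ± 1.33% with AVP and 36.9 ± 1.21% in control, values that overlap.

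**Figure D4:**
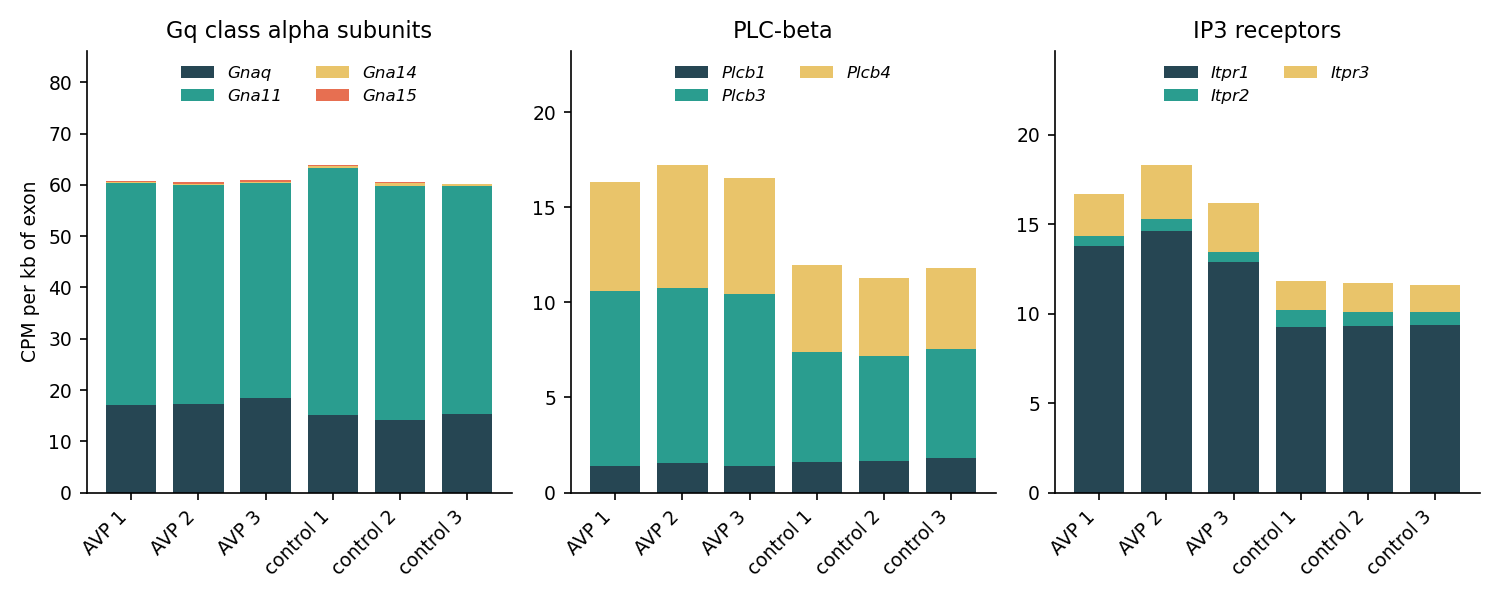
Level per kb of exon of the Gq class alpha subunits, of phospholipase C-beta and of the IP3 receptors in each library, as stacked bars from 0 in CPM per kb (AVP libraries left, control libraries right). The first class stays at 60.2 to 63.8 in all 6 libraries, while the phospholipase bars reach 16.3 to 17.2 with AVP and 11.3 to 12.0 in control, and the IP3 receptor bars 16.2 to 18.3 with AVP and 11.6 to 11.8 in control.

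Among the IP3 receptors, Itpr1 and Itpr3 rose, and Itpr2, which is no member of the set, fell. Itpr1 encodes the isoform that predominates in neurons (chromosome 6, 108213096 to 108551109, plus strand). The AVP libraries had 253, 268 and 236 CPM and the control libraries 170, 171 and 171 CPM. The control values were almost equal to each other, and every AVP value lay well above them. Itpr1 reached 252 ± 16.0 CPM with AVP and 171 ± 0.929 CPM in control, which is 1.48-fold higher (log2 fold change 0.57, SE 0.05, adjusted p = 3.78e-07). The coefficient of variation was 6.34% with AVP and 0.545% in control. Differences in spread between the groups were not tested for Itpr1 or any other member.

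Itpr3 encodes the isoform best known from epithelial and secretory cells (chromosome 17, 27057304 to 27122223, plus strand). It was measured at 21.1, 27.0 and 24.5 CPM in the AVP libraries and at 14.4, 14.4 and 13.4 CPM in the control libraries. Again the groups did not overlap, and the AVP libraries spread more widely, with a coefficient of variation of 12.4% with AVP and 4.03% in control. Means of 24.2 ± 3.01 CPM with AVP and 14.1 ± 0.567 CPM in control made this the largest rise of the set, 1.72-fold (log2 fold change 0.78, SE 0.10, adjusted p = 1.14e-05). Exons of Itpr1 and Itpr3 overlap annotated antisense transcripts whose reads cannot be told apart from theirs without strand.

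Itpr2 stood at 8.98 ± 0.814 CPM in AVP libraries and 12.1 ± 1.52 CPM in control libraries (log2 fold change -0.43, adjusted p = 0.0082), and the call was lost against a fold change of 1.2 (adjusted p = 0.0905). The rise was therefore not shared by all 3 IP3 receptor genes. Per kb of exon the 3 genes summed to 17.1 ± 1.1 with AVP and 11.7 ± 0.107 in control. Itpr1 held 80.7 ± 1.66% of that sum with AVP and 79.7 ± 1.06% in control, shares that overlap. The share of Itpr2 was 3.55 ± 0.131% with AVP and 6.99 ± 0.824% in control. Itpr1 counts over Itpr3 counts were 12.0, 9.91 and 9.62 with AVP and 11.8, 11.9 and 12.8 in control. These ratios overlapped between the groups (log2 difference -0.21, exact two-sided permutation p = 0.3, adjusted p = 0.3).

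The windows of Plcb3 and Itpr3 are shown beside that of Oxtr because these genes had the largest rises of the set. That of Plcb3 is GRCm38.p6 chr19:6969765-6970064 on the minus strand and lies inside the longer GENCODE gene model. Its capitals mark an AP-1 match (TGANTCA, at base 98) and 6 GC boxes on either strand. That of Itpr3 is chr17:27057054-27057353 on the plus strand, and its capitals mark an E-box at base 166 and a GC box at base 185.
Plcb3: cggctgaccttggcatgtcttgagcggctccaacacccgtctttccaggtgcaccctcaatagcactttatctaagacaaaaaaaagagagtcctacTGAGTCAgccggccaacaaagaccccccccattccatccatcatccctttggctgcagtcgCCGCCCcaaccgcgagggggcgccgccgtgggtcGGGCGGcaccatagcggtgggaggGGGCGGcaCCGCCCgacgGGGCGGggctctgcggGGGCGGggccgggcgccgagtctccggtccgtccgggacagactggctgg
Itpr3: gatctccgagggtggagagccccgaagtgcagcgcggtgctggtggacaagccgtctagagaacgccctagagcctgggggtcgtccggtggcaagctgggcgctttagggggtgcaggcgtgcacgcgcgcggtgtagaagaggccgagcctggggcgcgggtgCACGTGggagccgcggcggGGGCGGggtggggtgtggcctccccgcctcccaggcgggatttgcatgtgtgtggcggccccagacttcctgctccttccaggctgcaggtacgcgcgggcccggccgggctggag
Across all windows, the AP-1 letters occur in 7.81%. The E-box stood in the window of Oxtr, which fell, and in that of Itpr3, which rose. RefSeq windows were found for 9 of the 10 members, all but Itpr1. None of the 9 held a cyclic AMP response element (TGACGTCA, 1.79% of all windows) or a C/EBP-ATF composite (TGATGNAA, 3.97%), which says only that these letters are not in these windows.

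By level per kb of the annotated exon union, the order of the members differed between the groups mainly in the place of Oxtr. In AVP libraries it ran Gna11, Gnaq, Itpr1, Plcb3, Plcb4, Itpr3, Oxtr and Plcb1. In control libraries it ran Gna11, Gnaq, Itpr1, Oxtr, Plcb3, Plcb4, Plcb1 and Itpr3. Oxtr, at 1.9 ± 0.253 CPM per kb with AVP and 8.38 ± 0.362 CPM per kb in control, thus stood below Itpr3 with AVP and above every phospholipase in control. Itpr3 had 2.68 ± 0.333 CPM per kb with AVP and 1.56 ± 0.0629 CPM per kb in control, where it did not differ from Plcb1 beyond their spread. Itpr1 had 13.8 ± 0.873 CPM per kb with AVP and 9.31 ± 0.0507 CPM per kb in control.

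Around the members, other genes of the pathway moved in both directions. Beyond the members, 123 genes were listed by role, of which 122 were in the tables and 112 were tested. Of these, 41 rose and 37 fell (69.6% called, beside 57.5% of all tested genes), with a median log2 fold change of 0.01. The lists give context only and were not tested as sets. The counts of each list stand beside 28.7% of all tested genes higher and 28.8% lower with AVP. Among 9 other phospholipases C, 1 rose and 6 fell (median -0.24). The 1 that rose was Plcd4, a delta isoform, at 11.1 ± 0.549 CPM in AVP libraries and 2.63 ± 0.697 CPM in control libraries (log2 fold change 2.08, adjusted p = 5.74e-08). The eta isoforms Plch1 and Plch2 and the catalytically inactive Plcl1 fell, with log2 fold changes of -0.93, -0.97 and -0.30. Plch1 (1.88 CPM with AVP, 3.57 CPM in control) and Plch2 (1.12 CPM with AVP, 2.2 CPM in control) were scarce.

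Of 14 G beta and gamma subunit genes, 2 rose and 6 fell (median -0.22). Gng5 fell to 35.3 ± 2.57 CPM with AVP, against 90.1 ± 13.1 CPM in control, and Gng4 and Gnb5 fell with log2 fold changes of -0.38 and -0.34. Gng10 was at 197.0 ± 7.75 CPM in AVP libraries and 125.0 ± 7.59 CPM in control libraries, a log2 fold change of 0.65, and that of Gng8 was 0.94. Of 5 genes for G protein chaperones and exchange factors, 3 rose and 2 fell (median 0.48). Trio, an exchange factor for small GTPases and a Gq effector apart from phospholipase C, rose to 354.0 ± 27.5 CPM with AVP, against 243.0 ± 14.7 CPM in control, and its relative Kalrn rose with a log2 fold change of 1.04. The chaperone gene Pdcl rose (log2 fold change 0.48), while Ric8b and the exchange factor gene Arhgef25 fell (log2 fold changes -0.37 and -0.45).

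Genes that supply PIP2, the substrate of the phospholipases, were evenly divided, with 6 of 15 higher and 6 lower (median -0.09). Pip5k1b, a kinase of the last step, fell to 24.6 ± 0.887 CPM with AVP, against 60.9 ± 4.52 CPM in control (log2 fold change -1.31, adjusted p = 1.1e-09). Pi4k2b, a kinase of an earlier step, fell to 31.3 ± 2.72 CPM with AVP, against 63.0 ± 4.88 CPM in control, and Pitpnb had a log2 fold change of -0.39. The phosphatidylinositol transfer protein genes Pitpnm1, Pitpnc1 and Pitpna rose, with log2 fold changes of 0.76, 0.76 and 0.31. Of 9 genes that break down or convert IP3 or related inositol phosphates, 2 rose and 1 fell (median -0.02). The IP3 3-kinase gene Itpkb rose to 4.75 ± 0.891 CPM with AVP, against 1.92 ± 0.177 CPM in control, while the log2 fold changes were 0.22 for Impa1, which rose, and -0.24 for the 5-phosphatase gene Inpp5a, which fell.

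On the DAG branch, 5 of 11 DAG kinase and lipase genes rose and 3 fell (median 0.03). Dgki rose to 27.2 ± 0.755 CPM with AVP, against 9.1 ± 0.751 CPM in control (log2 fold change 1.58, adjusted p = 2.51e-09), and Dgkq and Dgkh rose with log2 fold changes of 0.95 and 0.72. Dgkd fell to 116.0 ± 5.57 CPM with AVP, against 209.0 ± 6.65 CPM in control (log2 fold change -0.85, adjusted p = 3.13e-09), and Dgkb and the DAG lipase gene Dagla fell with log2 fold changes of -1.14 and -0.45. Of 11 protein kinase C and D genes, 4 rose and 3 fell (median 0.00). Prkca rose to 29.5 ± 1.29 CPM with AVP, against 20.4 ± 0.799 CPM in control, and Prkd1 rose with a log2 fold change of 0.38. Prkcd, Prkcb and Prkd2 fell, with log2 fold changes of -0.37, -0.29 and -0.24.

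Among 11 genes listed for IP3 receptor partners, relatives of such partners or receptor degradation, 5 rose and 4 fell (median 0.20). Ahcyl2, Itpripl1 and Ssfa2 rose, with log2 fold changes of 0.58, 0.79 and 0.28. Rnf170, a ubiquitin ligase that acts on activated IP3 receptors, fell to 35 ± 1.56 CPM with AVP, against 57.1 ± 1.24 CPM in control (log2 fold change -0.71, adjusted p = 3.48e-07). Its partner in that process, Erlin2, and Itprip fell with log2 fold changes of -0.34 and -0.28.

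**Figure D5:**
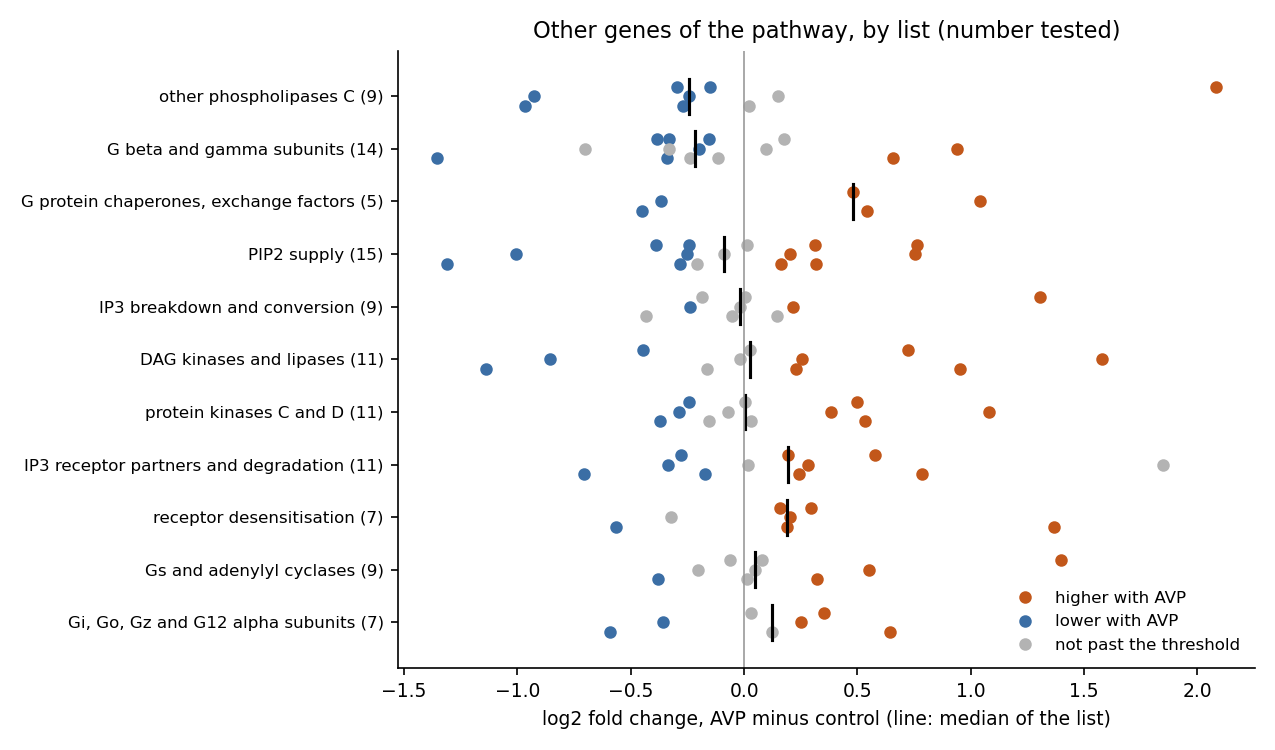
Log2 fold change, AVP minus control, of each tested gene of 11 pathway lists that hold no member (points: genes, orange higher, blue lower, grey not past the threshold; vertical line: median of the list). Each list has genes on both sides of 0, and the medians lie between -0.24 and 0.48.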

How the data were processed

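Illumina sequencing of TRIzol-extracted total RNA is recorded per the labels' protocols. The deposited tables hold whole-number read counts per gene symbol, 1 table per library, made by the authors from their reads. Per the submitters' processing notes, the builds were mm10 and GRCm38. Aligner, counter and strand use: not given in the sources used here. Counts of overlapping and antisense genes are therefore uncertain. All 24391 rows were read, of which 27 bear dates in place of symbols. The members, the gene lists and the tests were chosen with earlier results of these data known.

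The main test used edgeR 4.0.16 (with limma 3.58.1, under R 4.3.3): filterByExpr (minimum count 10), TMM factors, 1 model of all 6 libraries with no covariate, robust quasi-likelihood F test, Benjamini-Hochberg adjustment over 14163 genes, threshold 0.05. The biological coefficient of variation was 7.48%. A log2 fold change is AVP minus control. Its SE is its size divided by the root of the F statistic. The p-values rest on the spread of the replicates, with that of each gene drawn toward the trend over all tested genes. TMM scaling applies to the CPM of tested genes, whereas untested genes and markers are divided by total counts. Count ratios of relatives within a library were compared by exact two-sided permutation over libraries, with adjustment over the 5 ratios. Only counting error enters the intervals and the floor of 3 counts. Gene positions and exon lengths (the union of all annotated exons of a gene) come from GENCODE M21 (GRCm38), promoter windows from RefSeq (GRCm38.p6). The fit was tested on simulated data.

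Every member is named whatever its values. Of each pathway list, up to 3 called genes in each direction with the smallest p are named, and for Oxtr and Plcb4 the 5 and the 3 genes of nearest profile, passing over unnamed gene models and pseudogenes. Other genes were named after their values were seen, and 1 gene that the rule takes is not reported here. Alternatives were DESeq2 1.42.0, limma-voom, no filter, a minimum mean of 50 counts, library size alone, RLE factors, a test against a fold change of 1.2, the replicate number as a block and each library left out in turn. Further steps used Python 3.11.15 with pandas 2.3.3, scipy 1.17.1 and matplotlib 3.10.9.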

Additional observations from a re-analysis of the deposited data

How the results depend on the processing

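Over 14 alternatives, the log2 fold change of Oxtr stayed between -2.24 and -2.05, and those of Plcb3, Plcb4, Itpr1 and Itpr3 between 0.67 and 0.72, 0.44 and 0.53, 0.52 and 0.61, and 0.70 and 0.87, all past the threshold. When the test asked for more than a 1.2-fold change, 2197 genes were higher and 2332 lower with AVP, as were 23 and 15 pathway list genes, and 4 members were higher, since Gnaq (adjusted p = 0.615) was lost. Leaving out 1 library at a time gave 3525 to 4053 of all genes higher and 3592 to 4166 lower, of 14343 to 14414 tested. Of the members, 5 were higher each time and 1 to 2 lower. The second lower member was Plcb1 without control replicate 1 and Gna11 without control replicate 3. With the replicate number as a replicate block, 5 members were higher and 1 lower, 42 and 37 pathway list genes, and 3972 and 3969 of all genes, and no member changed its call. Same-numbered libraries correlated at only 0.08, -0.05 and 0.04 in their deviations. No clear shared deviation was thus seen, which cannot settle whether same-numbered cultures were handled together. Library size alone gave 4475 genes higher and 3722 lower. No alternative reversed a direction among the results computed. The depth limits Avpr1a and Avpr2, for which a level under about 0.08 CPM in a library was not detectable.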

Other observations

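The V2 receptor acts through the cyclic AMP branch. Of 9 tested genes for Gs class subunits and adenylyl cyclases, 3 were higher and 1 lower with AVP and 5 did not pass the threshold (median log2 fold change 0.05), while 57.5% of all tested genes were called. Adcy1, a calcium-stimulated adenylyl cyclase of neurons, rose to 62.2 ± 4.66 CPM with AVP, against 23.6 ± 1.76 CPM in control (SD, n = 3 each; edgeR log2 fold change 1.40, adjusted p = 1.07e-09). Adcy3 and Adcy6 rose and Adcy7 fell, with log2 fold changes of 0.55, 0.32 and -0.38. Gnas, which encodes the Gs alpha subunit, averaged 1040 CPM in AVP libraries and 1090 CPM in control libraries and did not pass the threshold (log2 fold change -0.06, adjusted p = 0.309).

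Of 7 genes for receptor kinases and arrestins, which switch off and internalise active receptors, 5 rose and 1 fell (median log2 fold change 0.19). Of all tested genes, 28.7% were higher and 28.8% lower with AVP. The 2 beta-arrestin genes moved in opposite directions. Arrb1 rose to 26.6 ± 0.523 CPM with AVP, against 10.3 ± 1.24 CPM in control (log2 fold change 1.37, adjusted p = 2.38e-08). Arrb2 fell to 53.0 ± 5.15 CPM with AVP, against 78.4 ± 2.99 CPM in control (log2 fold change -0.56, adjusted p = 7.44e-06). The receptor kinase genes Adrbk1 and Grk6 rose with log2 fold changes of 0.29 and 0.16. Of 7 alpha subunit genes of the Gi, Go, Gz and G12 classes, 3 rose and 2 fell (median 0.12). Gnai1, Gnai3 and Gnai2 rose with log2 fold changes of 0.64, 0.35 and 0.25, whereas Gnao1, the abundant Go subunit of neurons, fell to 97.4 ± 3.74 CPM with AVP, against 147.0 ± 14.7 CPM in control, and Gna12 fell with a log2 fold change of -0.36.

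Of the marker lists of non-neuronal cell types, those of astrocytes, microglia and endothelium had the lowest summed levels. Astrocyte markers summed to 1.68 to 2.33 CPM with AVP and 1.03 to 1.17 CPM in control, microglial markers to 0.0843 to 0.193 CPM with AVP and 0.0278 to 0.163 CPM in control, and endothelial markers to 0.478 to 1.02 CPM with AVP and 0.407 to 0.834 CPM in control. Oligodendrocyte markers, nearly all of them Mbp, summed to 17.3 to 19.4 CPM with AVP and 47.4 to 52.6 CPM in control, and 2 of the 4 were lower. Fibroblast markers, mostly Pdgfra, summed to 4.46 to 5.23 CPM with AVP and 12.2 to 16.8 CPM in control. The markers of GnRH neurons, mostly Isl1, summed to 157 to 176 CPM with AVP and 73.4 to 92.9 CPM in control. Of the 3, only Isl1 was higher, and Gnrh1 and Kiss1r did not pass the threshold. The part of these shifts in the changes of the receptor and phospholipase genes was not tested.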
